A study of Mus musculus with 6 samples.

Results

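The genes described here encode the translation initiation factors of the mouse, the proteins that bring the ribosome to the start codon of a messenger RNA. They were chosen by symbol: every gene of the deposited table whose name begins with Eif1 to Eif6, leaving out Eif4enif1, Eif4e1b and the eIF2 kinases, whose symbols begin with Eif2ak. The rule found 49 genes of 24062, and 43 of them had enough counts to be tested among the 10667 genes that passed the filter on low counts. RNA was measured by sequencing in ovulated, unfertilized eggs arrested at metaphase II (MII). The 3 groups each expressed a tagged H3.3, the histone laid down outside replication: R26K (arginine 26 replaced by lysine, H3.3R26K-eCFP), K27R (lysine 27 replaced by arginine, H3.3K27R-mCherry) and H3.3 (unmutated, H3.3-eGFP). All eggs came from super-ovulated females, 8 weeks old, of the mouse line HISRainbow;Figla-iCre, in which an oocyte-specific promoter drives the recombinase, and the form that an egg carried was read from its colour by confocal microscopy. No group lacked the transgene. Each form had its own tag, so in every comparison below a difference by tag and one by substitution cannot be told apart. There were 2 libraries a group, called biological replicates in the labels. How many eggs or females stood behind them is not given in the sources used here.

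Initiation proceeds in steps, each with its own factors. eIF2 carries the initiator tRNA to the small ribosomal subunit in its GTP-bound form, and eIF2B recharges eIF2 with GTP. eIF1, eIF1A, the large complex eIF3 and the GTPase activator eIF5 assemble with them. The cap-binding protein eIF4E, the scaffold eIF4G and the RNA helicase eIF4A, helped by eIF4B and eIF4H, prepare the messenger RNA, and the 4E-binding proteins hold eIF4E back. eIF5B joins the large subunit, which eIF6 otherwise keeps apart, and eIF5A acts mainly in elongation. MII eggs are transcriptionally quiet and rely on stored messenger RNA, much of which is kept with a short poly(A) tail until it is translated, so that control of initiation is a central part of gene expression at this stage.

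Total gene counts were 39603440 and 33786225 for R26K, 11557291 and 10803477 for K27R and 12748821 and 11452906 for H3.3. Levels are given as CPM, counts scaled to a common library total, and 3 counts stood for 0.0815 to 0.285 CPM. Of 17 egg markers, 16 or 17 had counts in every library, summing to between 56110 and 77000 CPM. Of 24 cumulus and granulosa markers, 19 and 17 had counts in R26K eggs, 16 and 6 in K27R eggs, and 8 and 13 in H3.3 eggs. Their summed levels were 2230 and 2162 CPM in R26K, 2331 and 1610 CPM in K27R eggs and 1266 and 2050 CPM in H3.3 eggs. Serpine2 made up most of each sum. It had 1914 and 1814 CPM in R26K, 1655 and 1394 CPM in K27R eggs and 941 and 1241 CPM in H3.3 eggs. Some other markers differed within pairs. Inha had 25.3 and 53.5 CPM in R26K, 82.99 and 0 CPM in K27R eggs and 0 and 97.5 CPM in H3.3 eggs. Tnfaip6 and Timp1 also had no count in K27R replicate 2 and H3.3 replicate 1. Bmpr1b, by contrast, was lower in H3.3 replicate 2 (43.25 CPM) than in replicate 1 (243 CPM). Of 11 blood and immune markers, Ptprc and the haemoglobin genes had no count and the sum stayed between 4.29 and 49.5 CPM, and for 10 markers of stroma, endothelium and oviduct epithelium it stayed between 15.5 and 158 CPM. The part of these cells in the results below was not tested. The 49 initiation factor genes together took 0.736% and 0.755% of the counts in R26K eggs, 0.7999% and 0.839% in K27R eggs, and 0.8395% and 0.719% in H3.3 eggs. The H3.3 libraries differed from each other by more than the group means did.

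The member that passed the test encodes eIF4A2, which has a close relative in eIF4A1 and a more distant one in eIF4A3. The stretch of coding sequence around the codons of the DEAD box, the motif that names this helicase family, is shown for the 3 genes, because counting reads for Eif4a2 depends on telling its sequence from that of its relatives. Capitals mark the 8 positions, out of 30, at which the 3 are not identical; the sequences run 5′ to 3′ along the coding strand of the GENCODE M21 transcripts (build mm10), from coding base 541 to 570 of Eif4a2, 535 to 564 of Eif4a1 and 550 to 579 of Eif4a3.
Eif4a2: TtCgtTTtggaCgaAgcAgatgaaatgttG
Eif4a1: TtCgtACtggaTgaAgcAgatgaaatgttA
Eif4a3: CtGgtTTtggaTgaGgcTgatgaaatgttG
Over the whole coding sequence Eif4a2 and Eif4a1 were identical at 952 of 1227 aligned positions (77.6%), and Eif4a2 and Eif4a3 at 64.9%. The longest identical run shared by the coding transcripts was 20 bases between Eif4a2 and Eif4a1, and 23 bases between Eif4a2 and Eif4a3, shorter than the 50-base reads. Outside the family, 12.7% of the 50-base stretches of the longest coding transcript of Eif4a2 also occurred in 3 other annotated genes, chiefly the predicted gene Gm2999 (8.61%). For Eif4a1 the share was 65.3%, nearly all of it with the pseudogene Eif4a-ps4, so that counts of Eif4a1 are less certain than those of Eif4a2.

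Eif4a2 was lower in R26K eggs than in H3.3 eggs, and it was the only 1 of the 43 tested members to pass the test in that comparison. Eif4a2 (chromosome 16, 23107444 to 23114136, plus strand, mm10) had 63.1 and 75.6 CPM in R26K, 511 and 686 CPM in K27R eggs and 367 and 535 CPM in H3.3 eggs. Both R26K libraries lay far below all the others, while the K27R and H3.3 libraries overlapped. The group means were 69.3 ± 8.87 CPM in R26K, 598 ± 124 CPM in K27R and 451 ± 119 CPM in H3.3 (SD, n = 2 each). The log2 fold change was -2.70 ± 0.33 (SE) in R26K against H3.3 (edgeR quasi-likelihood test, adjusted p = 0.0371), and 3.11 ± 0.34 in K27R against R26K (edgeR adjusted p = 0.0293). In K27R against H3.3 it was 0.41 ± 0.31 (edgeR adjusted p = 0.691). In bulk samples such as these, fewer cells that hold a transcript and less of it per cell cannot be told apart. These p-values set the group difference against a spread between libraries that was estimated from all 3 groups, with information shared over all tested genes. The R26K against H3.3 call ended without H3.3 replicate 2 (log2 fold change -2.40, adjusted p = 0.0639), without K27R replicate 1 or 2 (-2.70 and -2.71, adjusted p = 0.116 and 0.115), in a fit of the 2 groups alone (-2.70, adjusted p = 0.0705) and under a correction for GC content and length (-2.16, adjusted p = 0.104). Over all alternatives the adjusted p ran between 5.03e-11 and 0.116. Exons of Eif4a2 overlap 194 bases of the replication factor gene Rfc4 on the opposite strand, which these libraries do not separate. Rfc4 had 2.39 and 1.72 CPM in R26K, 2.04 and 15.4 CPM in K27R eggs and 17.4 and 19.6 CPM in H3.3 eggs.

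**Figure D1:**
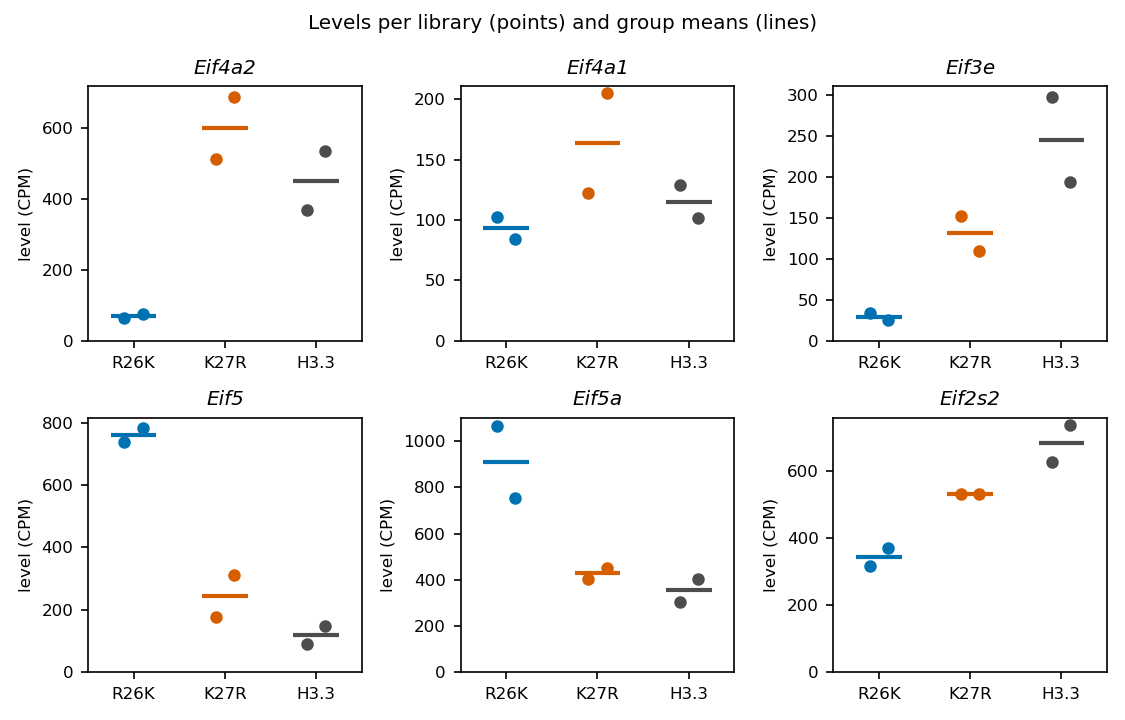
Levels (CPM, linear axes starting at 0) of 6 initiation factor genes, 1 point per library with lines at the means of the R26K, K27R and H3.3 groups (n = 2 each). Eif4a2 lies at 63.1 and 75.6 CPM in R26K and at 367 CPM or above in all other libraries, whereas the R26K and H3.3 points of Eif4a1 overlap.

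The other helicase genes did not share this pattern. Eif4a1 had 102 and 84.4 CPM in R26K, 122 and 205 CPM in K27R eggs and 129 and 101 CPM in H3.3 eggs. Its R26K and H3.3 values overlapped. The level of Eif4a2 per kilobase of annotated exon was 0.5 and 0.728 times that of Eif4a1 in R26K eggs, 3.39 and 2.72 times in K27R eggs, and 2.31 and 4.28 times in H3.3 eggs. Eif4a1 was the higher of the pair in the R26K libraries, and Eif4a2 in the others. Eif4a3, the exon junction helicase, was uneven within groups, with 33.8 and 39.7 CPM in R26K, 22.5 and 20.8 CPM in K27R eggs and 116 and 2.04 CPM in H3.3 eggs. Eif4b, the cofactor that stimulates eIF4A, had 41.6 and 30.9 CPM in R26K, 27.8 and 3.23 CPM in K27R eggs and 9.501 and 9.86 CPM in H3.3 eggs. Eif4h, its smaller relative, stayed at or below 21.2 CPM in every library. Neither gene passed the test in any comparison. Summed over Eif4a1, Eif4a2, Eif4a3, Eif4b and Eif4h, the level was 249 and 234 CPM in R26K, 690 and 915 CPM in K27R eggs and 643 and 656 CPM in H3.3 eggs, and most of the gap was that of Eif4a2.

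The single call is set here beside the counts over all tested genes. In R26K against H3.3, 0.619% of all tested genes were called (66 genes), 0.403% higher and 0.216% lower. Among the members it was 0 of 43 higher and 1 of 43 lower. At an unadjusted p under 0.05 there were 8 members, where 21.7% of all tested genes were under that value. Of these, 5 were higher, against 17.6% of all genes, and 3 lower, against 4.14%. The 8 include Eif3f, which had no count outside R26K, and Eif1ad, which had 1 count in H3.3. DESeq2 gave an adjusted p to 39 members and called 6 of them, against 18.7% of all genes with an adjusted p. It called 2 higher (Eif5 and Eif5a), against 13.8% of those genes, and 4 lower (Eif3e, Eif4a2, Eif2s2 and Eif1ax), against 4.84%. Both R26K libraries lay above both H3.3 libraries for 15 of the 43 members, against 44.9% of all tested genes, and below them for 7, against 15.2%. The 15 include Eif3f and Eif2b2, with no count in H3.3, and Eif1ad and Eif3b, with at most 0.153 CPM there. Genes of this kind were not taken out of the shares over all tested genes. Of the 15, 7 had a mean of at least 50 CPM, and of the 7 lower members 5 did. The median log2 fold change was 0.14 over the 43 members and 0.66 over all tested genes. The log2 fold change lay above 0 for 22 of the 43 members, against 61.3% of all tested genes. Where the mean reached 50 CPM or more, the median was -0.19 over 21 members, of which 8 lay above 0, and 0.03 over 2858 genes. The R26K libraries held a count for 12135 and 12112 genes of the whole table. The H3.3 libraries held one for 7590 and 7392 genes, the K27R libraries for 10715 and 7405. With every library thinned to 10803477 counts, R26K kept 11809 and 11852 genes, H3.3 kept 7508 and 7359, K27R kept 10687 and 7405. The part of this difference in the shares and medians over all tested genes was not tested.

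**Figure D2:**
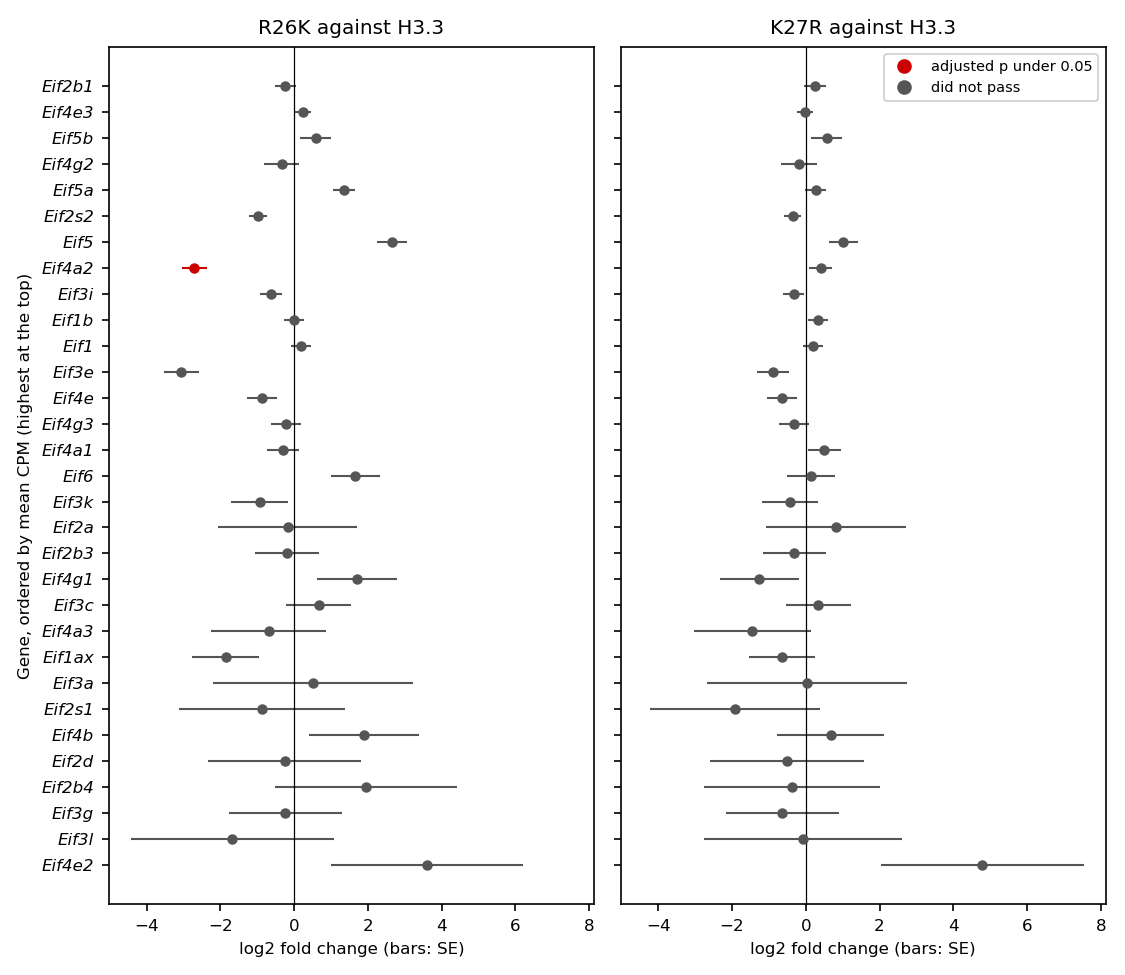
Log2 fold changes (horizontal, with SE) of the initiation factor genes whose mean reached 10 CPM, ordered by level from the top, in R26K against H3.3 on the left and K27R against H3.3 on the right. Eif4a2 in R26K is the 1 red point, the gene whose adjusted p was under 0.05, and Eif3e, Eif5 and Eif5a lie farther from 0 in R26K than in K27R.

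Of the genes of eIF3, the complex that binds the small subunit and recruits the messenger RNA, Eif3e had the log2 fold change farthest from 0 in R26K against H3.3 among those with a mean of 10 CPM or more. Eif3e (chromosome 15, 43250058 to 43282719) had 33.7 and 25.4 CPM in R26K, 153 and 110 CPM in K27R eggs and 297 and 194 CPM in H3.3 eggs, with no overlap between any of the groups. The log2 fold change of Eif3e was -3.05 ± 0.47 in R26K against H3.3 (edgeR adjusted p = 0.0551), -0.90 ± 0.43 in K27R against H3.3 (adjusted p = 0.522) and 2.15 ± 0.45 in K27R against R26K (adjusted p = 0.152). It thus did not pass the test, but it passed under 5 alternatives, among them DESeq2 (adjusted p = 1.93e-08) and leaving out R26K replicate 1 (adjusted p = 0.0250). Over all alternatives the adjusted p ran between 1.93e-08 and 0.150. A share of 22.03% of the 50-base stretches of its longest coding transcript also occurred in 4 annotated Eif3s6 pseudogenes.

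Eif3i, a WD-repeat subunit, was the most abundant eIF3 gene, with 258 and 229 CPM in R26K, 310 and 289 CPM in K27R eggs and 438 and 314 CPM in H3.3 eggs. The R26K libraries lay below both H3.3 libraries, and so did the K27R libraries, but the log2 fold change of -0.63 ± 0.29 in R26K against H3.3 did not pass (edgeR adjusted p = 0.255). Eif3k, an accessory subunit, spread over 61.02 and 73.6 CPM in R26K, 80.4 and 110 CPM in K27R eggs and 43.8 and 213 CPM in H3.3 eggs. Eif3c, a core subunit, had 69.98 and 59.5 CPM in R26K, 64.2 and 39.03 CPM in K27R eggs and 15.6 and 65.7 CPM in H3.3 eggs. For both genes the H3.3 libraries overlapped both other groups. Eif3a, the scaffold subunit, had 30.9 and 40.8 CPM in R26K, 50.9 and 0.475 CPM in K27R eggs and 50.2 and 0 CPM in H3.3 eggs, a gap between libraries of the same group. Eif3f had 4.29 and 3.99 CPM in R26K (158 and 132 counts) and no count in any K27R or H3.3 library. It passed the filter on low counts only through R26K, so its test is not read. The other eIF3 genes were low and uneven. Eif3g had 16.1 and 17.2 CPM in R26K, 8.31 and 16.9 CPM in K27R eggs and 33.02 and 6.20 CPM in H3.3 eggs. Eif3l had 7.52 and 3.36 CPM in R26K, 32.9 and 0.285 CPM in K27R eggs and 0.153 and 34.6 CPM in H3.3 eggs. Eif3h had 13.7 and 5.63 CPM in R26K, 6.68 and 0.475 CPM in K27R eggs and 0 and 28.5 CPM in H3.3 eggs. In all of these the difference between the H3.3 libraries was larger than that between the R26K libraries. Eif3d, the subunit known to bind the cap of some messenger RNAs, had 26.9 and 10.01 CPM in R26K, 11.6 and 0 CPM in K27R eggs and 0 and 5.18 CPM in H3.3 eggs. Eif3b had 16.3 and 4.08 CPM in R26K, 16.3 and 0 CPM in K27R eggs and 0.153 and 0.0850 CPM in H3.3 eggs, and Eif3m reached 10.8 CPM in 1 K27R library. Summed over the eIF3 genes, the level was 539 and 474 CPM in R26K, 734 and 577 CPM in K27R eggs and 878 and 862 CPM in H3.3 eggs, so the R26K sums were the lowest and the H3.3 sums the highest. Eif3e alone averaged 29.6 CPM in R26K and 245 CPM in H3.3. Of the 12 tested eIF3 genes, 6 had a log2 fold change above 0 in R26K against H3.3, against 61.3% of all tested genes. Both R26K libraries lay above both H3.3 libraries for 3 (Eif3b, Eif3d and Eif3f), against 44.9%. They lay below for 2 (Eif3e and Eif3i), against 15.2%.

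Eif5 lay in the opposite direction. Eif5 (chromosome 12, 111538016 to 111546752), which makes eIF2 hydrolyse its GTP once the start codon is found, had 737 and 781 CPM in R26K, 178 and 311 CPM in K27R eggs and 91.2 and 150 CPM in H3.3 eggs. The 3 groups did not overlap. For Eif5 the log2 fold change was 2.66 ± 0.41 in R26K against H3.3 (edgeR adjusted p = 0.0551), 1.02 ± 0.39 in K27R against H3.3 (adjusted p = 0.522) and -1.64 ± 0.39 in K27R against R26K (adjusted p = 0.201). Like Eif3e it missed the threshold and passed under several alternatives, with an adjusted p between 1.19e-06 and 0.131 in R26K against H3.3, and its log2 fold change was 2.83 under the correction for GC content and length (adjusted p = 0.108).

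Eif5a (chromosome 11, 69916714 to 69921958), whose protein carries the hypusine modification, had 1064 and 756 CPM in R26K, 404 and 453 CPM in K27R eggs and 306 and 405 CPM in H3.3 eggs. Both R26K libraries lay above all others, and the log2 fold change of 1.36 ± 0.29 did not pass (edgeR adjusted p = 0.113). Under the correction for GC content and length it was 0.23. Eif6 had 181 and 221 CPM in R26K, 52.2 and 87.3 CPM in K27R eggs and 30.5 and 96.5 CPM in H3.3 eggs. The log2 fold change was 1.66 ± 0.66 in R26K against H3.3 (edgeR adjusted p = 0.220) and -0.15 under that correction, a change of sign. Eif5b, the GTPase of subunit joining, overlapped between K27R and both other groups. It had 636 and 798 CPM in R26K, 486 and 935 CPM in K27R eggs and 610 and 347 CPM in H3.3 eggs. In R26K against H3.3 its log2 fold change was 0.58 ± 0.42 (edgeR adjusted p = 0.461). Exons of Eif5b share 1643 bases with Rev1 on the opposite strand, so reads of the pair cannot be told apart there. The paralogue Eif5a2 was low, at 0 and 5.35 CPM in R26K, 0.814 and 0 CPM in K27R eggs and 0 and 4.84 CPM in H3.3 eggs. Summed over Eif5, Eif5a, Eif5a2, Eif5b and Eif6, the level was 2619 and 2562 CPM in R26K, 1121 and 1786 CPM in K27R eggs and 1038 and 1003 CPM in H3.3 eggs.

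In eIF2, the beta subunit gene had the highest level. Eif2s2 (beta) had 317 and 370 CPM in R26K, 531 and 532 CPM in K27R eggs and 625 and 738 CPM in H3.3 eggs, again without overlap between the groups. For Eif2s2 the log2 fold change was -0.99 ± 0.24 in R26K against H3.3 (edgeR adjusted p = 0.153), -0.36 ± 0.24 in K27R against H3.3 (adjusted p = 0.606) and 0.63 ± 0.24 in K27R against R26K (adjusted p = 0.346). A share of 27.8% of its 50-base stretches also occurred elsewhere, chiefly in the predicted gene Gm9892. Eif2s1 (alpha), the subunit phosphorylated under stress, had 25.3 and 16.7 CPM in R26K, 20.3 and 0 CPM in K27R eggs and 35.2 and 41.3 CPM in H3.3 eggs. Eif2s3x (gamma) had at most 0.680 CPM in any library and Eif2s3y no count, and 36.2% of the 50-base stretches of Eif2s3x also occurred in Gm2223, so that how its reads were counted bears on this value. For 1 complex whose subunits assemble in equal numbers, the mean level per kilobase of exon over the 6 libraries was 76.8 CPM for Eif2s2, 4.67 CPM for Eif2s1 and 0.0513 CPM for Eif2s3x.

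The eIF2B genes were as uneven. Eif2b1 (alpha; chromosome 5, 124570213 to 124579131) had the highest level of all 49 genes, in CPM and per kilobase, with 1544 and 1402 CPM in R26K, 1681 and 2431 CPM in K27R eggs and 2083 and 1384 CPM in H3.3 eggs. Its groups overlapped in both comparisons with H3.3. Its log2 fold change in R26K against H3.3 was -0.23 ± 0.29 (edgeR adjusted p = 0.722). Per kilobase of exon its mean was 680 CPM, against 8.64 CPM for Eif2b3 (gamma), 6.51 CPM for Eif2b4 (delta), 2.17 CPM for Eif2b2 (beta) and 0.227 CPM for Eif2b5 (epsilon, the catalytic subunit). Within single libraries Eif2b1 was 55.7 and 88.0 times as high as Eif2b3 per kilobase in R26K, 52.2 and 301 times in K27R eggs, and 99.7 and 47.7 times in H3.3 eggs. None of the 50-base stretches of Eif2b1 occurred in another annotated gene. Eif2b3 had 70.1 and 40.3 CPM in R26K, 81.3 and 20.4 CPM in K27R eggs and 52.8 and 73.3 CPM in H3.3 eggs, and Eif2b5 reached 2.18 CPM at most. Eif2b4 had 26.8 and 42.8 CPM in R26K, 8.31 and 5.60 CPM in K27R eggs and 18.01 and 0 CPM in H3.3 eggs. Eif2b2 had 12.95 and 6.23 CPM in R26K, 5.38 and 0 CPM in K27R, and no count in either H3.3 library. Eif2a, an eIF2-independent tRNA carrier that is no part of eIF2, had 62.7 and 56.0 CPM in R26K, 93.6 and 143 CPM in K27R eggs and 134 and 0.170 CPM in H3.3 eggs, again a gap within a group. With the H3.3 group reduced to the library at 0.170 CPM, Eif2a was called in R26K against H3.3 (log2 fold change 8.39, edgeR adjusted p = 0.0374), and it was not called with both H3.3 libraries. Eif2d, which can also place a tRNA without eIF2, had 15.7 and 21.1 CPM in R26K, 22.6 and 8.07 CPM in K27R eggs and 0.230 and 43.5 CPM in H3.3 eggs.

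**Figure D3:**
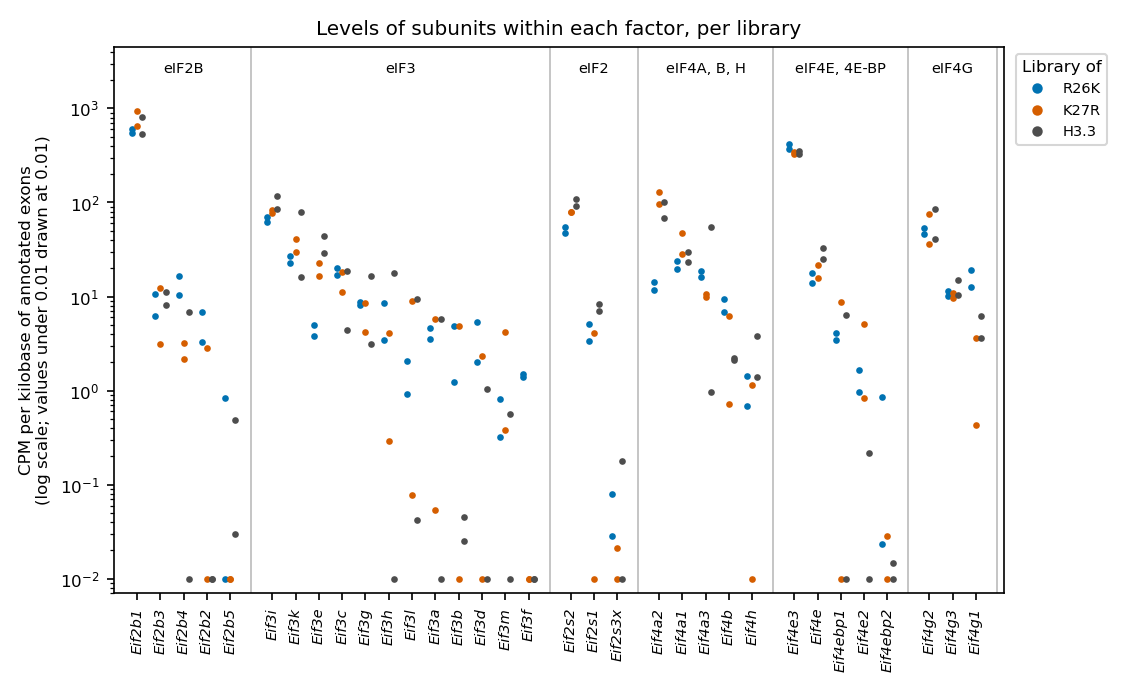
Level per kilobase of annotated exon (CPM, log axis, values under 0.01 drawn at 0.01) of the genes of 6 initiation factors, 1 point per library, ordered by mean level within each factor. Eif2b1 and Eif4e3 lie at the top, Eif2b1 more than 10-fold above every other eIF2B gene, and the genes of 1 complex are spread over several powers of 10.

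Among the cap-binding proteins, Eif4e3, which in mice binds the cap in an atypical way, was higher per kilobase than the canonical Eif4e in every library. Eif4e3 had 1064 and 943 CPM in R26K, 816 and 863 CPM in K27R eggs and 886 and 817 CPM in H3.3 eggs, among the steadier values of the family. Its log2 fold change in R26K against H3.3 was 0.24 ± 0.21 (edgeR adjusted p = 0.579). Eif4e had 107 and 83.4 CPM in R26K, 94.8 and 129 CPM in K27R eggs and 152 and 195 CPM in H3.3 eggs. Both R26K and both K27R libraries lay below the H3.3 libraries. The log2 fold changes were -0.87 ± 0.41 in R26K (edgeR adjusted p = 0.261) and -0.64 ± 0.41 in K27R (adjusted p = 0.585). Per kilobase of exon the level of Eif4e3 was 23.8 and 27 times that of Eif4e in R26K, 20.6 and 16.04 times in K27R eggs, and 13.9 and 9.99 times in H3.3 eggs. Eif4e2, a cap-binding protein that represses translation, had 7.25 and 12.5 CPM in R26K, 6.27 and 38.6 CPM in K27R eggs and 1.61 and 0 CPM in H3.3 eggs. Its fitted log2 fold change of 4.79 ± 2.74 in K27R against H3.3 did not pass (edgeR adjusted p = 0.534), and it was 11.88 without H3.3 replicate 1 and 2.94 without K27R replicate 2. The 4E-binding proteins were low. Eif4ebp1 had 9.04 and 7.59 CPM in R26K, 19.2 and 0 CPM in K27R eggs and 0 and 14.0 CPM in H3.3 eggs. Eif4ebp2 reached 4.96 CPM in 1 R26K library, and Eif4ebp3 had no count.

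In eIF4G, Eif4g2, which lacks the eIF4E-binding region and serves cap-independent initiation, was higher per kilobase than the canonical Eif4g1 in every library. Eif4g2 had 470 and 545 CPM in R26K, 761 and 365 CPM in K27R eggs and 864 and 413 CPM in H3.3 eggs, all groups overlapping. For Eif4g2 the log2 fold change was -0.33 ± 0.48 in R26K against H3.3 (edgeR adjusted p = 0.769). Eif4g1 (chromosome 16, 20668313 to 20692884) had 93.0 and 141 CPM in R26K, 26.6 and 3.13 CPM in K27R eggs and 26.3 and 45.2 CPM in H3.3 eggs. Its R26K libraries lay above all others. The log2 fold changes were 1.71 ± 1.08 in R26K against H3.3 (edgeR adjusted p = 0.387) and -2.97 ± 1.13 in K27R against R26K (adjusted p = 0.346). Under the correction for GC content and length the value in R26K against H3.3 was 0.30, and without K27R replicate 1 that in K27R against R26K was -5.22. Per kilobase of exon the ratio of Eif4g2 to Eif4g1 was 3.63 and 2.78 in R26K eggs, 20.5 and 83.6 in K27R eggs, and 23.6 and 6.57 in H3.3 eggs. Eif4g3 was close to even, with 113 and 126 CPM in R26K, 120 and 106 CPM in K27R eggs and 167 and 114 CPM in H3.3 eggs.

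Eif1 and Eif1b, whose products guard start codon choice, had group means of 267 to 305 CPM and of 272 to 346 CPM. Eif1 had 299 and 307 CPM in R26K, 297 and 314 CPM in K27R eggs and 291 and 244 CPM in H3.3 eggs. Its close paralogue Eif1b had 250 and 294 CPM in R26K, 362 and 330 CPM in K27R eggs and 248 and 301 CPM in H3.3 eggs. Both K27R libraries of Eif1b lay above all the others. The log2 fold change of Eif1b was -0.01 ± 0.28 in R26K against H3.3 (edgeR adjusted p = 0.991). It was 0.33 ± 0.28 in K27R against H3.3 (edgeR adjusted p = 0.725) and 0.34 ± 0.28 in K27R against R26K (adjusted p = 0.801). Eif1ax, the X-linked gene of eIF1A, was lower in both R26K libraries, at 15.8 and 12.7 CPM in R26K, 31.8 and 34.5 CPM in K27R eggs and 56.8 and 46.6 CPM in H3.3 eggs. The groups did not overlap, and the log2 fold change of -1.86 ± 0.92 did not pass (edgeR adjusted p = 0.274). Eif1a reached 1.97 CPM at most. Eif1ad, an eIF1A domain protein, had 2.63 and 7.23 CPM in R26K, 4.32 and 1.99 CPM in K27R eggs and 0.0766 and 0 CPM in H3.3 eggs.

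Ranked by level per kilobase of exon over all 6 libraries, Eif2b1 (680 CPM) and Eif4e3 (357 CPM) came first, followed by Eif1b (264 CPM), Eif5a (237 CPM), Eif1 (139 CPM), Eif3i (82.7 CPM), Eif2s2 (76.8 CPM), Eif4a2 (69.8 CPM), Eif5b (65.2 CPM), Eif4g2 (56.0 CPM) and Eif5 (54.9 CPM). The libraries of Eif2b1 lay above those of every other gene in this order. From Eif1b downward each gene overlapped the next, and Eif5a, at 448 CPM in R26K replicate 1, also overlapped Eif4e3. Per kilobase of the longest coding transcript Eif2b1 was again first (871 CPM), but Eif5a (393 CPM) came before Eif4e3 (357 CPM). Group means of 3 of these genes lay far apart: that of Eif5a was 383 CPM per kilobase of exon in R26K and 149 CPM in H3.3, the mean level of Eif4a2 in R26K was 0.154 times that in H3.3, and the mean level of Eif5 in R26K was 6.30 times that in H3.3. Of the 3, only Eif4a2 passed the test (edgeR adjusted p = 0.0371). For Eif5 and Eif5a the edgeR adjusted p was 0.0551 and 0.113. None of the 3 passed under the correction for GC content and length.

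**Figure D4:**
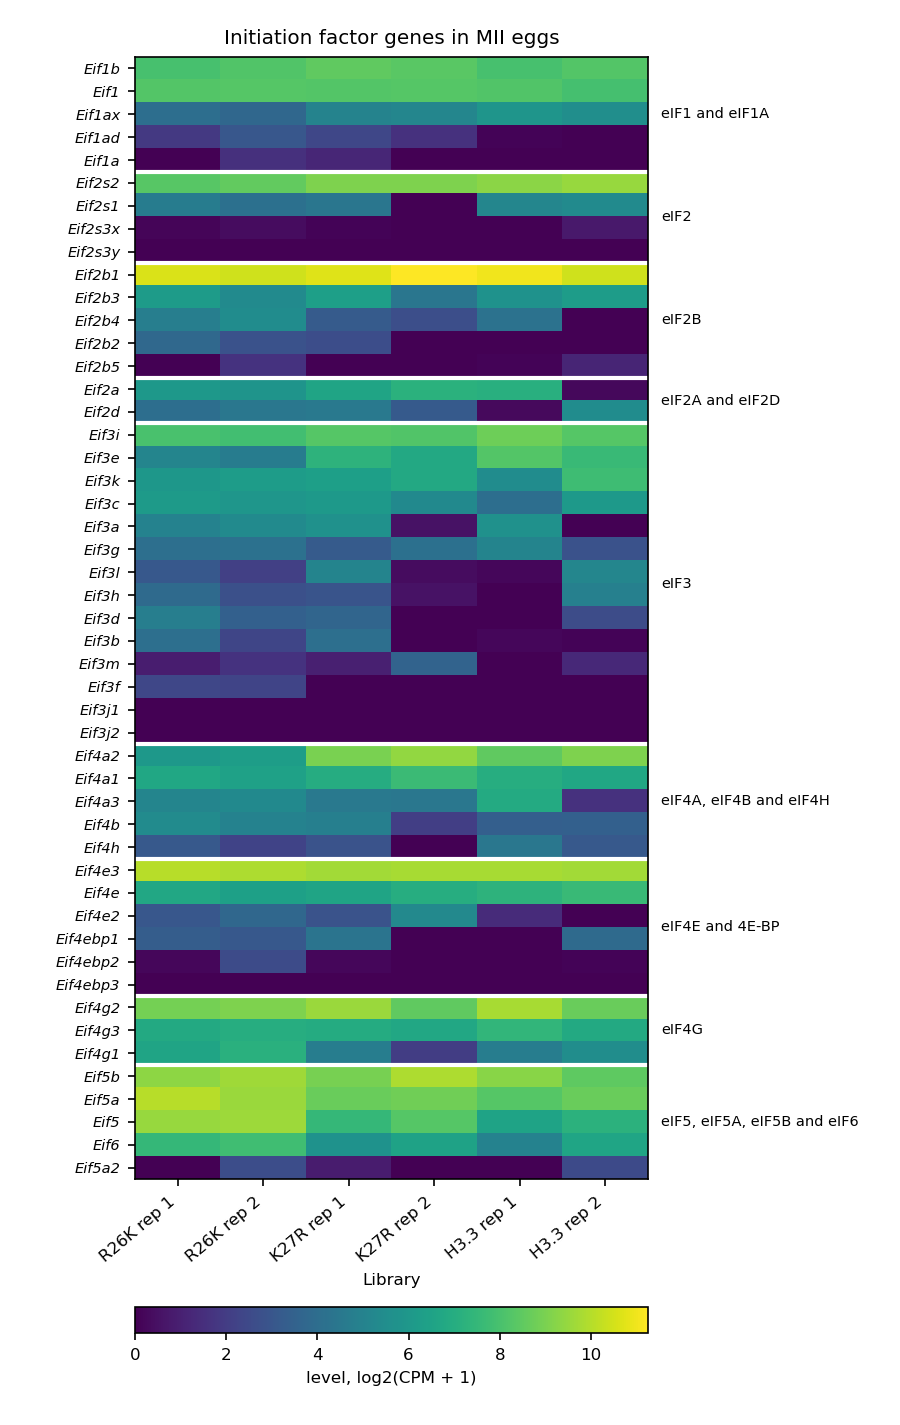
Level of each of the 49 initiation factor genes (rows, by factor) in the 6 libraries (columns), as log2(CPM + 1) on a colour scale running up to the highest value, that of Eif2b1. Within a factor the same few genes are bright in all columns, Eif4a2 and Eif3e are darker in the R26K columns and Eif5 is brighter there.

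Many low members came and went between libraries of the same group. A count was found for 42 and 45 members in R26K eggs, 43 and 33 in K27R eggs, and 35 and 38 in H3.3 eggs. After thinning every library to 10803477 counts, there were 41 and 45 in R26K eggs, 43 and 33 in K27R eggs, and 34 and 38 in H3.3 eggs. Of the members with a mean of at least 10 CPM in the other 5 libraries, none had less than 1 CPM in either R26K library or in K27R replicate 1. In K27R replicate 2 there were 5 such members out of 32. The first H3.3 library had 4 out of 33 and the second had 4 out of 30. The genes with no count were Eif2s1 and Eif3d in K27R replicate 2, Eif3d and Eif3h in H3.3 replicate 1, and Eif2b4, Eif3a and Eif4e2 in H3.3 replicate 2. Over the 43 tested members, log2(CPM + 1) correlated between the 2 libraries of a group with Pearson's r = 0.957 in R26K, 0.862 in K27R and 0.750 in H3.3, a description across genes within these libraries. The R26K pair had the highest r of all pairs of libraries and the H3.3 pair the lowest. Some libraries of different groups were closer than the K27R pair. Between K27R replicate 1 and R26K replicate 1 r was 0.922, and between H3.3 replicate 1 and K27R replicate 1 it was 0.887. The 6 members that were not tested were Eif2s3x and Eif4ebp2, each with a count in 4 libraries, and Eif2s3y, Eif3j1, Eif3j2 and Eif4ebp3, with none. Eif3j1 and Eif3j2 are near copies of each other, and 48.2% and 90.8% of their 50-base stretches also occurred in genes at other places, so that 0 counts do not tell whether their messenger RNA was there.

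In K27R against H3.3 no member passed the test, and no gene of the whole table did (0 of 10667, edgeR). At an unadjusted p under 0.05 there were 759 genes (7.12%) and 1 member, Eif5. The gene was higher, as were 6.05% of all tested genes at that value, while 1.07% were lower. DESeq2 called 685 genes (7.60% of those with an adjusted p) and 0 members. Both K27R libraries lay above both H3.3 libraries for 5 members, where 15.9% of all tested genes did so, and below for 8, where 9.62% did. The 5 include Eif1ad, at 0.0766 and 0 CPM in H3.3, and the 8 include Eif2b5, with no count in K27R. The median log2 fold change was 0 over the 43 members, of which 21 lay above 0, and 0.12 over all tested genes, of which 53.7% did. The members with the smallest p among those of at least 10 CPM were Eif5, Eif3e, Eif4e2, Eif4e, Eif2s2 and Eif5b, with the values given above, and for Eif5b the log2 fold change was 0.57 ± 0.42 (edgeR adjusted p = 0.667). With a library left out, that of Eif5b lay between 0.018 (without K27R replicate 2) and 1.04 (without H3.3 replicate 1). The size of the shift in K27R can be set beside that in R26K for these members, with the H3.3 libraries shared by both. It was 1.02 in K27R and 2.66 in R26K for Eif5, -0.90 and -3.05 for Eif3e, and -0.36 and -0.99 for Eif2s2. For Eif4e it was -0.64 and -0.87, for Eif5b 0.57 and 0.58, and for Eif4e2 4.79 and 3.61. The sign differed for Eif4a2, at 0.41 and -2.70, and for Eif4g1, at -1.26 and 1.71.

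In K27R against R26K, 0.375% of all tested genes were called (40 genes), 0.169% higher and 0.206% lower, and among the members Eif4a2 was called higher and none lower. DESeq2 called 4 of the 38 members with an adjusted p, against 8.83% of all such genes: Eif4a2 and Eif3e higher, against 2.90%, and Eif5 and Eif5a lower, against 5.93%. At an unadjusted p under 0.05 there were 7 members, Eif4a2, Eif3e, Eif2s2, Eif5a, Eif5, Eif4g1 and Eif3f, where 13.2% of all tested genes were under that value. Eif3f is among them with counts in R26K only. The first 3 of these were higher in K27R, against 3.43% of all tested genes, and the other 4 lower, against 9.82%. The log2 fold change of Eif5a was -1.09 ± 0.29 (edgeR adjusted p = 0.252). Both K27R libraries lay above both R26K libraries for 10 members, where 17.5% of all tested genes did so, and below them for 10, where 36.3% did. The lower ones include Eif3f, with no count in K27R. The call of Eif4a2 ended without K27R replicate 1 (log2 fold change 3.31, adjusted p = 0.150), without K27R replicate 2 (2.88, adjusted p = 0.308), in a fit of the 2 groups alone (3.15, adjusted p = 0.0506) and under the correction for GC content and length (2.51, adjusted p = 0.101). The adjusted p ran between 6.48e-14 and 0.308 over all alternatives. The median log2 fold change was -0.26 over the 43 members, of which 17 lay above 0, and -0.32 over all tested genes, of which 41.9% did.

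Base composition is given beside these differences. Of the 7 members lower in both R26K libraries than in both H3.3 libraries, 6 had coding transcripts with under 45% G and C (Eif1ax, Eif4a2, Eif3e, Eif4e, Eif2s1 and Eif2s2, 39.7% to 42.1%), and Eif3i had 52.9%. Of all 43 tested members, 14 were under 45%. The 15 members higher in both ranged between 41.6% for Eif5 and 57.9% for Eif6, with a median of 50.9%. For the 7 of them with a mean of at least 50 CPM the median was also 50.9%. The median of the 43 tested members was 49.8%. Eif5a held 54.98%, Eif4g1 54.1%, Eif4e3 45.05% and Eif5b 43.7%. Over the 21 members with a mean of at least 50 CPM, GC content correlated with the log2 fold change of R26K against H3.3 with Pearson's r = 0.45 and Spearman's rho = 0.47, and over all 43 tested members with r = 0.24 and rho = 0.28. For K27R against H3.3 these were -0.11 and -0.13 over the 21 members and 0.03 and -0.03 over the 43. For K27R against R26K they were -0.52 and -0.45 over the 21 members and -0.30 and -0.41 over the 43. The members share the same libraries, and these values are descriptions. The part of base composition in the calls was not tested beyond the correction for GC content and length given above, under which no member passed in any comparison.

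**Figure D5:**
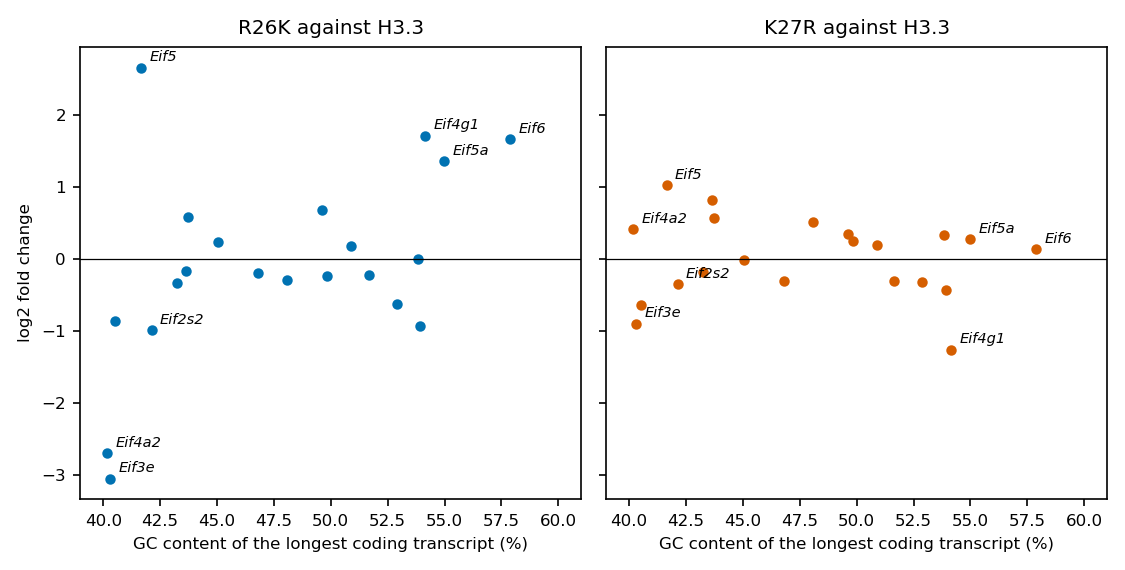
Log2 fold change (vertical) against GC content of the coding transcript in percent (horizontal) for the 21 initiation factor genes whose mean reached 50 CPM, in R26K against H3.3 on the left and K27R against H3.3 on the right, 1 point per gene. In R26K, Eif4a2 and Eif3e lie low at about 40.2% and 40.3%, Eif5a, Eif6 and Eif4g1 lie high at 54.1% or more, and Eif5 lies high at 41.6%.

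Messenger RNAs of the translation apparatus often begin with a run of pyrimidines, the TOP motif, through which growth signals control their translation. A start of this kind, a C at the annotated first base followed by 4 bases that are each C or T, was found in 2 of the 38 members with a RefSeq promoter entry (5.26%) and in 813 of 27025 genes in that table (3.01%). The 2 starts are shown with the run of pyrimidines in capitals, read on the gene's own strand in GRCm38.p6, for Eif2s3x from chrX:94212632-94212651 (minus strand) and for Eif3f from chr7:108934415-108934434 (plus strand).
Eif2s3x: CTTTTCTCTCCgagcaagat
Eif3f: CTCTCTTTCTCggcaagatg
Both genes were low, at no more than 0.680 CPM for Eif2s3x and 4.29 CPM for Eif3f in any library. None of the members given with full statistics held such a start among those with an entry. Eif3e, Eif3i, Eif4e3, Eif4g2 and Eif6 had no entry. A run whose start is annotated even slightly off is missed by this rule, and the starts used in eggs were not measured.

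The wider apparatus was examined through a list of 42 partners and regulators of initiation, such as poly(A)-binding proteins and their partners, and a list of 18 elongation and termination factors. Of 38 tested partners and regulators, edgeR called 1 lower and 0 higher in R26K against H3.3, against 0.216% and 0.403% of all tested genes. The gene called was Paip1, which encodes a protein that binds both the poly(A)-binding protein and eIF4A. Paip1 had 202 and 128 CPM in R26K, 5573 and 7248 CPM in K27R eggs and 6263 and 6641 CPM in H3.3 eggs. Its log2 fold change was -5.29 ± 0.33 in R26K against H3.3 (edgeR adjusted p = 0.0113) and 5.28 ± 0.33 in K27R against R26K (adjusted p = 0.0174), where it was again the 1 gene of the list that was called. At an unadjusted edgeR p under 0.05 there were 7 of the 38 in R26K against H3.3 and 6 in K27R against R26K, against 21.7% and 13.2% of all tested genes. DESeq2 called 6 in R26K against H3.3, against 18.7% of all genes with an adjusted p. By edgeR, Paip1, Larp4 and Ddx3x among these lay below 0, and Eif2ak1, Eif2ak3 and Ppp1r15a above 0. In K27R against R26K it called 4 (Ybx2, Paip1, Larp4 and Ddx3x), where DESeq2 called 8.83% of all such genes. Without K27R replicate 1 or 2 the edgeR adjusted p of Paip1 was 0.0542 and 0.0634 in R26K against H3.3, and 0.0937 and 0.188 in K27R against R26K; in a fit of R26K and H3.3 alone it was 0.0705. Over all alternatives it ran between 1.67e-67 and 0.0705 in R26K against H3.3 and between 5.57e-66 and 0.188 in K27R against R26K. In K27R against H3.3 none of the 38 was called by edgeR or DESeq2, and 1 had an unadjusted edgeR p under 0.05, against 7.12% of all tested genes. The 2 with the smallest p there were Ppp1r15a, a phosphatase subunit that acts on eIF2, and Paip2b. Their log2 fold changes were 1.43 ± 0.53 and -0.87 ± 0.40 (edgeR adjusted p = 0.522 for both). The median log2 fold change of the list was 0.67 in R26K against H3.3, where it was 0.66 over all tested genes, and 0.15 in K27R against H3.3, where it was 0.12. In K27R against R26K it was -0.63, and -0.32 over all tested genes.

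Of 16 tested elongation and termination factors none was called by edgeR in any comparison. At an unadjusted p under 0.05 there were 3 in R26K against H3.3, 1 in K27R against H3.3 and 2 in K27R against R26K, where 21.7%, 7.12% and 13.2% of all tested genes were under that value. DESeq2 called 2, 0 and 2, against 18.7%, 7.60% and 8.83% of all genes with an adjusted p. Eef2k, the kinase that slows elongation by phosphorylating the factor eEF2, had 171 and 259 CPM in R26K, 114 and 107 CPM in K27R eggs and 49.3 and 26.4 CPM in H3.3 eggs, without overlap between groups. Its log2 fold change was 2.504 ± 0.51 in R26K against H3.3 (edgeR adjusted p = 0.102) and 1.55 ± 0.50 in K27R against H3.3 (adjusted p = 0.522). Eef1e1 had 71.6 and 54.8 CPM in R26K, 147 and 329 CPM in K27R eggs and 137 and 234 CPM in H3.3 eggs. For Eef1e1 the log2 fold change was -1.55 ± 0.53 in R26K against H3.3 (edgeR adjusted p = 0.213) and 1.91 ± 0.53 in K27R against R26K (adjusted p = 0.285). Eefsec, the elongation factor for selenocysteine, had 0.651 and 0.570 CPM in K27R eggs, against 78.2 and 93.5 CPM in R26K eggs (log2 fold change -7.12 ± 2.61, edgeR adjusted p = 0.346), and 8.81 and 0 CPM in H3.3 eggs. Gtpbp2, second by p in K27R against H3.3 (adjusted p = 0.522), had 3.58 and 0 CPM in K27R eggs and no count in H3.3 eggs. The median log2 fold change of the 16 genes was 1.59 in R26K against H3.3, 0.56 in K27R against H3.3 and -0.71 in K27R against R26K. Over all tested genes it was 0.66, 0.12 and -0.32. Dohh, Pelo and Gtpbp2 had no count in H3.3 eggs. Their fitted log2 fold changes of 8.825, 9.23 and 8.56 in R26K against H3.3 bear on the 1.59. In that comparison 9 of the 16 lay above 0, against 61.3% of all tested genes.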

How the data were processed

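The authors deposited raw counts, as whole numbers, for 24062 gene symbols in 6 libraries. Per the labels' protocols, cDNA was made with a SMARTer kit, whose primer binds poly(A), so that a level also depends on the tail. Libraries were made with a Nextera kit, which keeps no strand, and read as single 50-base reads. Tools named in the submitters' processing notes are featureCounts, TopHat2 2.1.0, cutadapt 1.9.1 and SAMtools 1.3, with build mm10. The annotation, strand setting and treatment of reads with several matches are not given in the sources used here. No column was left out and every row named a gene.

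From these counts, CPM were computed after TMM scaling, and groups were compared by the quasi-likelihood test of edgeR 4.0.16 under R 4.3.3 (glmQLFit, then glmQLFTest). A single model held the 6 libraries, with a mean for each of 3 groups and 3 residual degrees of freedom. Two-sided tests covered the 10667 genes kept by filterByExpr, with p adjusted over all of them (Benjamini-Hochberg) and called under 0.05. The fit's common dispersion was 1.63. SDs are over the 2 libraries of a group. Floors of 3 counts cover counting error only. The steps were tested on simulated counts with known changes. That changed genes must be called was required only in a run with a dispersion lower than that of these data. It does not show how many such changes could be called here.

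Levels per kilobase used the annotated exons of GENCODE M21 (mm10). Shared 50-base stretches and GC content were taken from the longest coding transcript of each gene there, and promoters were from RefSeq (GRCm38.p6). Full statistics are given for members that were called and for the 10 with the highest level. They are also given for the 10 with the smallest p in R26K against H3.3, among those of at least 10 CPM. In each other comparison they are given for 6 such members. Genes of the other lists are named where called by edgeR or DESeq2, or else up to 2 with the smallest p. Dohh and Pelo are also named, for their part in a median. The members and lists were chosen with earlier results of these data known. Alternatives tried were upper-quartile and RLE (relative log) scaling, DESeq2 1.42.0, a filter on the mean of 10 CPM or none, a block for the replicate number, a fit of the 2 groups alone, robust spread, thinning to 10803477 counts, a loess correction for GC content and length, and each library left out.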

Additional observations from a re-analysis of the deposited data

How the results depend on the processing

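In R26K against H3.3, 1 member was called; 6 were called by DESeq2, 3 without a filter, 3 at a mean of at least 10 CPM, 3 with the replicate number as a block (Eif5, Eif3e and Eif4a2), 0 in a fit of the 2 groups alone, 0 under the correction for GC content and length, and 0 to 3 with a library left out. In K27R against R26K, 1 was called; 4 by DESeq2, 2 with the block (Eif4a2 and Eif5), 0 in a fit of the 2 groups alone, 0 under the correction, and 0 to 1 with a library left out. In K27R against H3.3 the number was 0 under every alternative run. Both scalings (RLE and upper quartile), robust spread and thinning left 1, 0 and 1 members called. The cause of these changes was not tested.

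Over all genes, where 66 were called in R26K against H3.3, the count was 1644 by DESeq2, 241 without a filter, 153 at 10 CPM, 260 with the block, 18 under the correction, 0 with the 2 groups alone and 1 to 193 with a library left out. In K27R against R26K, where 40 were called, it was 759 by DESeq2, 156 without a filter, 95 at 10 CPM, 195 with the block, 3 under the correction and 0 to 140 with a library left out, and in K27R against H3.3, where 0 were called, 685 by DESeq2 and 0 to 5.

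The median log2 fold change of the members in R26K against H3.3 was -0.24 at 10 CPM, -0.25 under the correction and -0.05 to 0.79 with a library left out (0.79 without H3.3 replicate 2), against 0.14. In K27R against R26K it was 0.10 under the correction and -1.10 to 0 with a library left out (-1.10 without K27R replicate 1), against -0.26. In K27R against H3.3 it was -0.39 to 0.28 with a library left out, against 0. Directions changed for Eif6 in R26K against H3.3 under the correction (-0.15) and with a library left out for 3 genes. Eif1b ran between -0.15 and 0.14 (0.14 without H3.3 replicate 2, 0.080 without R26K replicate 1), Eif2b1 between -0.50 and 0.083 (the highest without H3.3 replicate 1) and Eif4g2 between -0.77 and 0.29 (the highest without H3.3 replicate 1), none of which passed the test. Upper-quartile scaling moved the median of all genes by -0.20 in R26K against H3.3 and by 0.22 in K27R against R26K; relative to that shift Eif4a2 kept its direction and its call. Over all tested genes, libraries with the same number did not deviate together (Pearson's r = 0.01, -0.01 and 0.02). Genes that 1 library of a pair lacks weigh on these values. They therefore cannot decide whether the numbers pair the samples, and the labels do not say. With 2 libraries a group, the scatter within groups limits what could be detected for low members, many of which 1 library of a pair lacks.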
